A study of Mus musculus with 4 samples.

Results

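Peaks of the V5-tagged Foxr2 protein on mouse chromosomes 11 and 13 were taken from CUT&RUN of a Foxr2 p53LOF neurosphere line. All peaks of both chromosomes in the 2 Foxr2 p53LOF lists were members, 5350 of 31909 peaks (16.8%) in replicate 1 and 6788 of 38580 (17.6%) in replicate 2. The pair was chosen by its peak values in these same lists, so its fold and its weak peak density are given as a description with no test. Chromosomes 2 and 10, with 3220 and 3771 peaks together in the same lists, served as the reference.

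CUT&RUN tethers a nuclease to an antibody bound to chromatin, so that DNA around the bound protein is released and sequenced. The Foxr2 p53LOF line (genotype FOXR2 P53LoF, C57BL/6J) was grown from an in utero electroporation (IUE) tumor that carried a vector for V5-tagged FOXR2 together with a guide RNA against p53, and it is a single line, so its 2 replicates do not represent separate tumors. The V5 control (genotype H3.3G34R, C57BL/6J, 2 replicates) came from another IUE model without the tag and therefore differs in genotype as well as in the tag. Cross-linking was light (0.1% formaldehyde, 1 minute), with 500000 cells per sample. The labels do not say whether replicates came from separate cultures.

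Foxr2 is a forkhead transcription factor whose activation defines CNS neuroblastoma, FOXR2-activated. Peaks of such a factor fall at gene starts, where promoters assemble the transcription machinery, and away from starts, where enhancers and other accessible DNA lie. Here a promoter peak lay no more than 1 kb from a protein-coding start and the others were called distal. The fold of a peak is the number of fragments at its summit plus 1 over the library background plus 1, and a weak peak has a fold of 6 or less. One fragment was worth a fold of 0.442 in replicate 1 and 0.329 in replicate 2. A reproducible site is a stretch covered in both replicates by peaks that passed the peak filter of the study's methods. The filter asked for a fold and −log10 q over 6, a length under 10000 bp and no control peak over at least 10 bp. The study also required an accessible chromatin peak of the same mouse model, and that step was not applied here.

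The sites with the highest fold show what kind of DNA carried the strongest signal, and 5 of them, from the highest promoter and distal sites of each chromosome, are given as mm10 (GRCm38) sequence, plus strand, 5′ to 3′. On chromosome 11 these were the promoter of 0610009B22Rik (chr11:51688875-51689074), the promoter of Mnt, a repressor that competes with MYC for its partner MAX (chr11:74830538-74830737), and an intergenic site 3356 bp from the start of BC030867 (chr11:102245426-102245625). On chromosome 13 they were the promoter of Rnf44, a RING finger gene (chr13:54688275-54688449), and an intergenic site 19589 bp from the start of Nsd1 (chr13:55190093-55190292). Each run was kept clear of exons. It holds the replicate 1 summit except at Rnf44, where the summit lay in an exon and the nearest exon-free bases are shown.
0610009B22Rik promoter: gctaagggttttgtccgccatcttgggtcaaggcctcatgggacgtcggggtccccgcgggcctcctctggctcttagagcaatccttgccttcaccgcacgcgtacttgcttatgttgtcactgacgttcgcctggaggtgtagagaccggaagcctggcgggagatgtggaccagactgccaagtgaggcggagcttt
Mnt promoter: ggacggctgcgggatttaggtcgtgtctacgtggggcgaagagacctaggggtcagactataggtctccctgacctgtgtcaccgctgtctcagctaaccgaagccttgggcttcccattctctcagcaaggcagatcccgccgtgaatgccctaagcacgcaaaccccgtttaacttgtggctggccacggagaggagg
BC030867 distal: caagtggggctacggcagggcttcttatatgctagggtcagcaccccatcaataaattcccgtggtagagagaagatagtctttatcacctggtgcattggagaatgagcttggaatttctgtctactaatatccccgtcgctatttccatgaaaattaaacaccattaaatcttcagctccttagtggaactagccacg
Rnf44 promoter: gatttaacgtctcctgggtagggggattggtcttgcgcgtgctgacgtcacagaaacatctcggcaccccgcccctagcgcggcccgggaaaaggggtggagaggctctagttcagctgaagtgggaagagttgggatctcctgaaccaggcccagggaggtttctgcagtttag
Nsd1 distal: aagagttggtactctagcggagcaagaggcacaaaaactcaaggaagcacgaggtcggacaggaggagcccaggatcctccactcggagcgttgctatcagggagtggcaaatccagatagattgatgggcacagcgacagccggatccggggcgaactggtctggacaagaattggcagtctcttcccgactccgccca

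Motif matches were to be set in capitals, and none of the 5 runs held one. The letters searched on both strands were CCGGAAGT for ETS factors, TGTTTAC for forkhead factors, ACAAAGG or ACAATGG for SOX factors and CACGTG for the E-box of MYC-type factors, and none of these 5 overlaps another. In windows of 200 bases centred on the replicate 1 summit, the ETS letters were in 1.42% of the 773 promoter sites of chromosome 11, 0.565% of the 354 of chromosome 13 and 1.33% of the 7807 on all chromosomes. Windows of the same length centred on protein-coding gene starts held them in 4.70% on chromosome 11 and 4.81% on chromosome 13. The share at promoter sites of chromosome 13 rests on 2 windows. These exact ETS letters are a narrower measure than the motif models used in the study. The study placed ETS motifs among the most enriched at its Foxr2 peaks, and the measures were not compared here. The E-box was in 5.95% of promoter sites on chromosome 11, 5.93% on chromosome 13 and 5.06% on all chromosomes, and in 7.51%, 4.33% and 5.64% of the windows at gene starts. The forkhead letters were in 1.42% of promoter sites on chromosome 11, 0.847% on chromosome 13 and 1.601% on all chromosomes. Their share was 2.53% on chromosomes 2 and 10, and the value of chromosome 13 rests on 3 windows. At distal sites the SOX letters were in 8.33% on chromosome 11, 5.43% on chromosome 13 and 8.01% on all chromosomes, and the forkhead letters in 2.94%, 4.89% and 3.05%. The printed promoter runs held between 9 and 13 CpG dinucleotides, and the distal runs 5 near BC030867 and 11 near Nsd1.

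Foxr2 promoter peaks had a higher median fold on chromosomes 11 and 13 than on any other chromosome in both replicates. The fold is taken over 1 background value per library, so a difference in chromosome copy number would also enter it. The study inferred copy-number changes in its mouse models, and copy number in this line was not tested. The median fold at promoter peaks of chromosome 11 was 10.2 in replicate 1 (22 fragments, 1012 peaks) and 11.5 in replicate 2 (34 fragments, 1030 peaks). Chromosome 13 had 10.6 (23 fragments, 470 peaks) and 11.8 (35 fragments, 486 peaks). The reference had 7.07 (15 fragments, 1461 peaks) and 7.88 (23 fragments, 1513 peaks). Chromosome 11 was therefore at 1.45 ± 0.015 (SD, n = 2) times the reference, and chromosome 13 at 1.5 times in each replicate. Chromosome 13 ranked highest and chromosome 11 next among 20 chromosomes in both replicates.

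The reference chromosomes lie near the lower end of that order. Chromosome 2 held rank 17 in replicate 1 and rank 19 in replicate 2, and chromosome 10 held ranks 17 and 14, so the size of the difference rests on that choice. Against all other autosomes pooled, the levels were 1.29 times for chromosome 11 and 1.33 times for chromosome 13. The nearest chromosome below the pair was chromosome 15, at 9.50 in replicate 1 and 10.3 in replicate 2, with 20.5 and 30.5 fragments. Chromosome X was lowest, at 5.74 and 5.91.

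**Figure D1:**
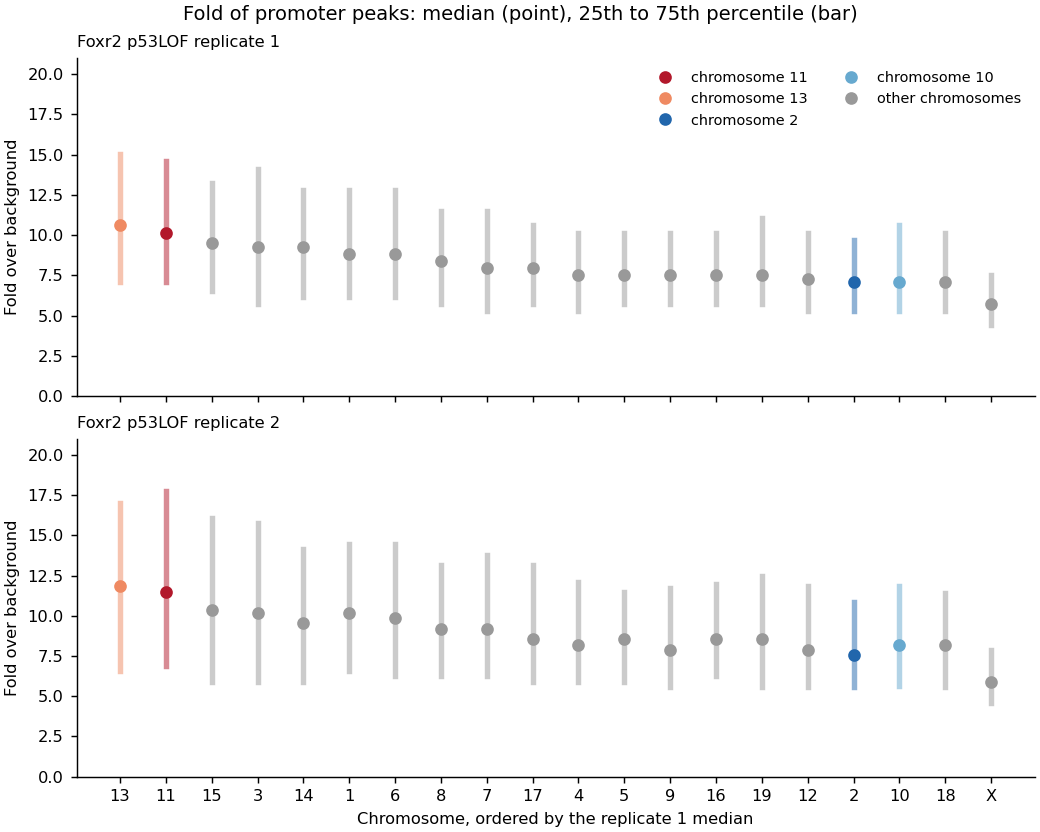
Fold of promoter peaks on each of 20 chromosomes in the 2 Foxr2 p53LOF replicates, with the median as a point and the 25th to 75th percentile as a bar. Chromosomes 13 (10.6 and 11.8) and 11 (10.2 and 11.5) have the highest medians in both panels, and chromosome X (5.74 and 5.91) the lowest.

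The difference from the reference was small among the weakest promoter peaks and larger from the middle of the distribution up. At the 10th percentile of promoter fold, chromosome 11 was at 1.1 times the reference in replicate 1 and 1.0 times in replicate 2, and chromosome 13 was at 1.1 and 1.0 times. At the 25th percentile the ratios were 1.33 and 1.24 for chromosome 11, and 1.33 and 1.18 for chromosome 13. At the 75th percentile they reached 1.5 and 1.59 for chromosome 11, and 1.55 and 1.52 for chromosome 13. At the 90th percentile they were 1.48 and 1.54 for chromosome 11, and 1.58 and 1.52 for chromosome 13. At the 99th percentile the folds of chromosome 11 were 34.02 and 45.3, those of chromosome 13 were 32.97 and 40.7, and those of the reference were 24.7 and 33.97. A peak must clear the caller's threshold to be listed, with the lowest fold at 3.09 in replicate 1 and 2.96 in replicate 2, so the lowest percentiles are held to that floor on every chromosome.

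**Figure D2:**
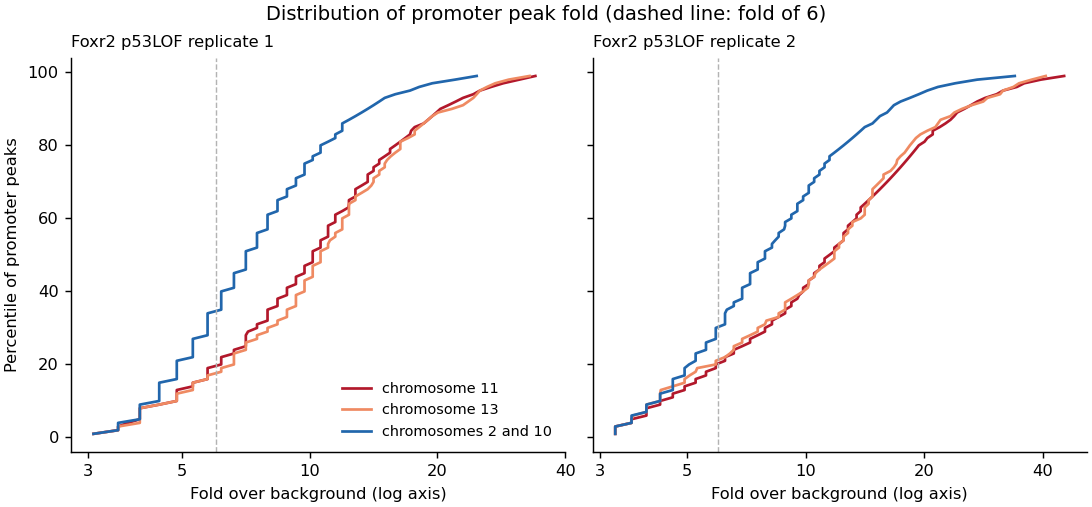
Percentiles of promoter peak fold (log axis) for chromosome 11, chromosome 13 and chromosomes 2 and 10 pooled, with a dashed line at a fold of 6. The curves of chromosomes 11 and 13 run close together and lie to the right of the reference from the middle upward, while the low ends meet, with medians of 10.2 and 10.6 against 7.07 in replicate 1.

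The higher level ran along both chromosomes rather than coming from 1 stretch. Of the 5 Mb windows with at least 5 promoter peaks in each replicate, 22 of 25 on chromosome 11 (88%) and 23 of 23 on chromosome 13 (100%) had a median above the reference median in both replicates. The same held for 7 of 34 windows on chromosome 2 (20.6%) and 10 of 24 on chromosome 10 (41.7%), and for 30 of 33 on chromosome 1 (90.9%) and 15 of 18 on chromosome 15 (83.3%), so a high share of windows was also found on chromosomes of intermediate level. Window medians ran from 6.19 to 12.8 in replicate 1 and from 7.23 to 15.4 in replicate 2 on chromosome 11. On chromosome 13 they ran from 8.84 to 13.9 and from 8.87 to 14.5, with the other two of its windows short of 5 promoter peaks.

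On either side of the midpoint the levels were close. On chromosome 11 the median promoter fold was 10.2 on each side in replicate 1, and 11.5 before and 11.7 past the midpoint in replicate 2. On chromosome 13 it was 11.05 before and 10.2 past the midpoint in replicate 1, and 11.8 on each side in replicate 2.

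The other 3 windows of chromosome 11 hold between 6 and 27 coding genes. The window of 10 to 15 Mb had medians of 6.19 and 7.23 over 5 promoter peaks in each replicate and holds 10 coding genes, with Fignl1 at 11.5 and 13.5, Zpbp at 10.2 and 12.8 and Vwc2 at 6.19 and 7.23 as its highest promoters. The other two, at 35 to 40 Mb and 110 to 115 Mb, hold 6 and 27 coding genes. The highest window in replicate 2 was 70 to 75 Mb, at 12.4 and 15.4, led by Mnt and by the promoter of Rpain and Nup88, a nuclear pore gene, at 32.3 and 39.4. On chromosome 13 the window of 5 to 10 Mb, with 12 coding genes and 11 promoter peaks in each replicate, had medians of 13.7 and 14.5, led by Gtpbp4, Idi1 and the Krüppel-like factor gene Klf6 (16.3 and 16.1). The lowest on chromosome 13 in replicate 1 were 8.84, shared by the first window and by 110 to 115 Mb, where Gpbp1 (18.1 and 21.4), Map3k1 (16.3 and 18.1) and Arl15 (17.2 and 14.1) had the highest promoters.

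**Figure D3:**
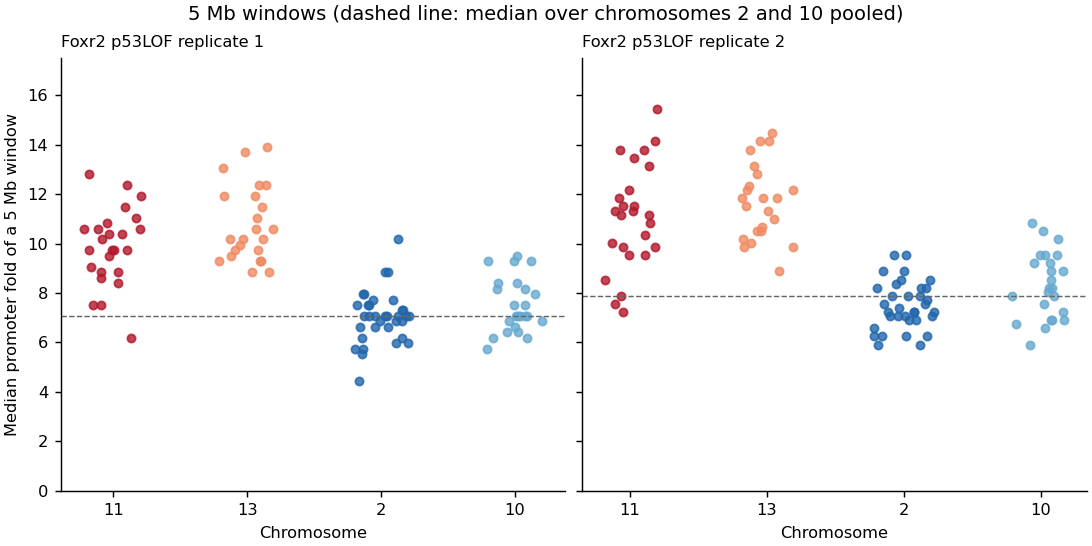
Median promoter fold of each 5 Mb window with at least 5 promoter peaks in each replicate, on chromosomes 11 (25 windows), 13 (23), 2 (34) and 10 (24), with the pooled median of chromosomes 2 and 10 as a dashed line. All 23 windows of chromosome 13 and 22 of 25 on chromosome 11 lie above the line in both panels.

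Weak peaks were also denser on both chromosomes. Chromosome 11 held 13.7 weak peaks per assembled Mb in replicate 1 and 19.2 in replicate 2, and chromosome 13 held 13.4 and 18.9, against 5.89 and 6.97 over the reference. The ratios were 2.33 and 2.76 for chromosome 11 (mean 2.54 ± 0.30, SD, n = 2) and 2.28 and 2.71 for chromosome 13 (mean 2.49 ± 0.30, SD, n = 2). The pair had the 2 highest densities among 20 chromosomes in both replicates, with chromosome 15 next at 10.8 and 14.7. Weak peaks made up 55.5% and 62.2% of the peaks of chromosome 11 and 65.3% and 70.9% of those of chromosome 13, with 57.5% and 61.0% over all chromosomes. The share on chromosome 11 thus lay near that of all chromosomes and the share on chromosome 13 above it. At the threshold, chromosome 11 had 141 peaks at a fold of 5.74 just inside and 119 at 6.19 just outside in replicate 1, and chromosome 13 had 94 and 66.

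Gene density did not order the chromosomes as weak peaks did. Chromosome 11 has 13.8 coding genes per assembled Mb and chromosome 13 has 7.1, while their weak peaks per Mb were 13.7 and 13.4 in replicate 1. Chromosome 7, at 14.2 genes per Mb the densest of all, had 6.06 and 6.34 weak peaks per Mb. Per protein-coding start in place of per Mb, the density over the reference was 1.84 times for chromosome 11 and 3.39 times for chromosome 13.

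**Figure D4:**
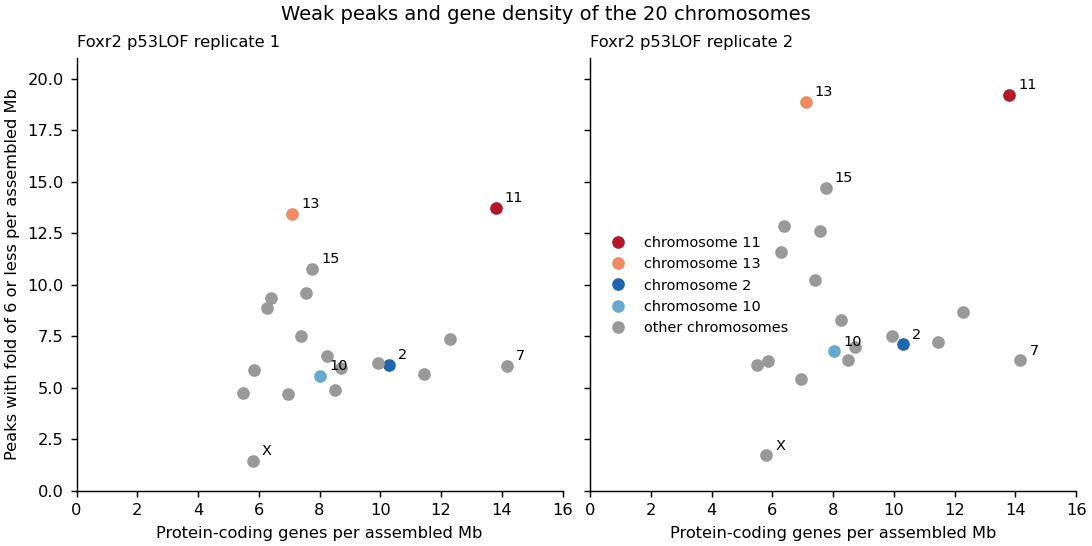
Peaks with a fold of 6 or less per assembled Mb against protein-coding genes per assembled Mb, 1 point per chromosome and 1 panel per replicate. Chromosomes 11 and 13 lie at 13.7 and 13.4 weak peaks per Mb in replicate 1 at gene densities of 13.8 and 7.1.

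The higher density of weak peaks lay mainly in distal ones. Distal weak peaks were 3.02 ± 0.25 times (SD, n = 2) as dense as on the reference on chromosome 11 and 3.15 ± 0.21 times on chromosome 13. Weak promoter peaks were at 1.02 and 1.19 times the reference density on chromosome 11 and at 0.421 and 0.587 times on chromosome 13. A higher promoter fold moves promoter peaks out of the weak class by construction. All promoter peaks together numbered 8.52 per Mb on chromosome 11, 4.01 on chromosome 13 and 4.78 on the reference in replicate 1. Strong distal peaks, with a fold over 6, were denser too, at 2.76 and 2.48 times on chromosome 11 and 2.53 and 2.32 times on chromosome 13. With each fold divided by its chromosome's promoter level, which lowers the count on the pair by construction, the ratios were 1.1 and 1.23 on chromosome 11 and 1.06 and 1.1 on chromosome 13. The median fold of all distal peaks was 4.42 on each of chromosomes 11 and 13 in replicate 1 and 4.86 on the reference.

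Weak distal peaks of the pair were shared between replicates at slightly lower rates than those of the reference. In replicate 1, 54.1% of the 1432 on chromosome 11 and 48.6% of the 1493 on chromosome 13 overlapped a replicate 2 peak, with 57.7% of the 1297 on the reference. In replicate 2 the shares were 29.8%, 27.2% and 33.8%. Counting only the shared ones left 6.53 per Mb on chromosome 11, 6.19 on chromosome 13 and 2.45 on the reference in replicate 1. Strong distal peaks were shared at 98.4% and 98.7% on chromosomes 11 and 13 and 95.9% on the reference in replicate 1, and at 92.1%, 96.4% and 93.6% in replicate 2.

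Peak shape and base composition added further detail. Promoter peaks were longer on the pair, with a median of 2074 bp on chromosome 11, 2190 bp on chromosome 13 and 1433 bp on the reference in replicate 1, and 2452, 2557 and 1712 bp in replicate 2. Weak distal peaks had similar lengths everywhere, at 556, 544 and 565 bp in replicate 1. In the 200 bases around their summits, the median GC content was 47.0% on chromosome 11, 43.0% on chromosome 13 and 45.5% on the reference. Weak distal summits lay inside a protein-coding gene in 54.3% of cases on chromosome 11, where genes cover 48.4% of assembled bases, and in 40.8% on chromosome 13, where they cover 35.7%. The reference had 53.2% on 44.7% of assembled bases, so an excess over the bases covered was found there too.

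Weak peaks were denser past the midpoint of chromosome 11. Their density was 9.20 per Mb before and 18.1 past the midpoint in replicate 1, and 12.7 and 25.4 in replicate 2. On chromosome 13 it was 14.1 before and 12.9 past the midpoint in replicate 1, and 19.97 and 17.9 in replicate 2. Over the 25 windows of chromosome 11, weak peaks per Mb and coding genes per Mb had a Spearman rho of 0.79 in replicate 1 and 0.81 in replicate 2, while over the 24 windows of chromosome 13 with at least 1 assembled Mb rho was 0.28 and 0.39. On the reference it was 0.62 and 0.61 over 63 windows. These are descriptions over neighbouring windows of the same libraries.

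The densest window of chromosome 11 was 115 to 120 Mb, with 32.6 weak peaks per Mb in replicate 1 and 41.8 in replicate 2, where the last window, beyond 120 Mb, had 41.9. The 115 to 120 Mb window holds 122 coding genes, of which 88 had a promoter peak in both replicates (61.1% of all coding genes of chromosome 11, 58.6% of chromosome 13 and 51.9% on all chromosomes had one), led by the polycomb gene Cbx8 (23.9 and 26.3) and by the promoter of Mfsd11 and the splicing factor gene Srsf2 (23.9 and 28.6). The sparsest was 10 to 15 Mb, at 2.4 and 4.6. On chromosome 13 the densest was 95 to 100 Mb, at 25.6 and 33.8, with the microtubule gene Map1b (24.3 and 28.6), Enc1 (19.0 and 25.6) and Tnpo1 (17.7 and 18.7) as its highest promoters. The sparsest in replicate 1 was 65 to 70 Mb, at 2.80 and 6.80. In it 36 of 53 coding genes had a promoter peak in both replicates, where 58.6% over the whole chromosome did, led by Ptdss1 and Mterf3 at 23.0 and 30.2 and the RNA methyltransferase gene Nsun2 at 16.3 and 24.0.

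The controls gave few peaks and no level. On chromosome 11 they listed 27 and 11 peaks, on chromosome 13 10 and 5, and on chromosomes 2 and 10 together 23 and 13, out of 308 and 124 in all. Per Mb this was 0.227 and 0.0926 on chromosome 11, 0.0854 and 0.0427 on chromosome 13, 0.0617 and 0.0336 on chromosome 2 and 0.0944 and 0.0551 on chromosome 10. Promoter peaks numbered 2 and 2 on chromosome 11 and 1 and 0 on chromosome 13, too few for a median. Control peaks touched 16 and 17 Foxr2 peaks on chromosome 11 and 9 and 8 on chromosome 13.

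After the filter, 44.1% of the peaks of chromosome 11 remained in replicate 1 and 37.2% in replicate 2, near the 42.1% and 38.5% over all chromosomes. On chromosome 13, 34.3% and 28.4% remained. The reproducible sites numbered 1181 on chromosome 11 and 722 on chromosome 13, together 15.9% of 11942 sites on 9.22% of assembled bases and 11.4% of coding genes. At a minimum fold of 10 they numbered 598 and 357. With folds divided by the chromosome's own level, a step that lowers them by construction, they numbered 752 and 424. Without either change there were 9.95 and 6.16 sites per Mb, with 4.03 on chromosome 2 and 4.14 on chromosome 10. Promoter sites made up 65.5% of the sites of chromosome 11 and 49.0% of those of chromosome 13, with 71.1% on chromosome 2 and 68.4% on chromosome 10. Sites with the highest lower fold of the replicates were more often on the pair. Among the 100 highest, 20 were on chromosome 11, 9 on chromosome 13 and 2 on chromosomes 2 and 10. The pair was chosen by its peak values in these same lists, so this excess follows from the choice.

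A reproducible promoter site was present at 866 of 1638 coding genes of chromosome 11 (52.9%) and at 387 of 831 of chromosome 13 (46.6%), with 39.7% over all chromosomes. Without olfactory and vomeronasal receptor genes, which are silent outside sensory neurons, the shares were 55.7% and 49.6%, with 42.6% over all chromosomes. The fold that put these genes past the filter was also what singled the chromosomes out.

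The 10 highest promoter sites of chromosome 11 included 0610009B22Rik (48.6 in replicate 1 and 63.4 in replicate 2), Mnt (46.8 and 69.6) and Pemt, a phosphatidylcholine synthesis gene (46.0 and 49.9). The site between Nbr1, an autophagy receptor gene, and the DNA repair gene Brca1 had 40.2 and 47.6. The others were at Ddx42 and Ccdc47, the ribosomal scaffold gene Rack1, Tmem256 and the synaptic adhesion gene Nlgn2, the histone acetyltransferase gene Kat7, the fatty acid synthase gene Fasn, and the RNA helicase gene Ddx5 with Cep95, down to 34.5 and 39.4. In all 10 the fold was higher in replicate 2, as it was at 78.0% of all sites of chromosome 11. The 5 highest distal sites ran from 31.8 and 35.8 near BC030867 to 25.2 and 34.8 near Wdr81, with sites nearest to Myo1g (in an intron of the noncoding gene Snhg15), in Cyth1 and in Specc1 between them.

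On chromosome 13 the highest promoter sites were at Rnf44 (47.7 and 65.0), the mismatch repair gene Msh3 (39.3 and 44.0), the ribosome assembly GTPase gene Gtpbp4 (38.0 and 38.4) and the isoleucyl-tRNA synthetase gene Iars (36.2 and 38.8). The transcription and cell cycle kinase gene Cdk7 followed at 33.6 and 40.1, then Jarid2, whose product belongs to polycomb repressive complex 2, at 32.7 and 33.5. Shc3, Idi1, Bicd2, and Rmi1 with Hnrnpk completed the 10, down to 29.2 and 40.4. The highest distal site lay upstream of the histone methyltransferase gene Nsd1 (31.4 and 40.7), whose own promoter had 11.9 and 11.8. The next were nearest to Wnk2 (30.05 and 31.5), in Pde4d (30.5 and 28.6), nearest to A830005F24Rik and nearest to Gm10260.

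Most listed genes of DNA repair, chromatin and cell division had a site at their promoter. On chromosome 11, sites were found at 11 of 13 tumor suppressor and DNA repair genes, 16 of 17 chromatin genes and 11 of 13 cell division genes. On chromosome 13, they were found at 16 of 18 cell division and DNA repair genes and 9 of 9 chromatin genes. Some peaks at promoters shared by neighbouring genes counted in both lists of chromosome 13, so these counts are not independent. Over all coding genes, the share with a site was 52.9% on chromosome 11, 46.6% on chromosome 13 and 39.7% on all chromosomes. Brca1 led the first list, and Trp53, the gene cut by the guide in this line, had 31.4 and 41.1 at a promoter peak shared with Wrap53. Among cell division genes of chromosome 11, Hmmr (29.6 and 30.6, shared with Nudcd2), Birc5 (17.2 and 26.6) and Kpna2 (15.9 and 20.7) were highest. The chromatin genes of chromosome 11 were led by Kat7 (36.7 and 45.7), Kdm6b (30.05 and 41.1) and Cbx8 (23.9 and 26.3). On the chromatin list of chromosome 13, Jarid2 (32.7 and 33.5) was highest. Nsun2 (16.3 and 24.0) followed, which was listed there although it encodes an RNA methyltransferase. In the cell division and repair list of chromosome 13, Msh3 and Cdk7 were followed by E2f3 (25.2 and 34.5), a cell cycle transcription factor gene. The telomerase gene Tert, with no promoter peak in either replicate, was the exception on that list, along with Cks2, treated below.

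Shares in the lineage and signalling lists were nearer to those over all coding genes of their chromosomes, 52.9% on chromosome 11 and 46.6% on chromosome 13. On chromosome 11, sites were found at 10 of 16 neural and glial genes and 11 of 17 growth factor signalling genes. Etv4, an ETS factor gene (16.3 and 25.3), the astrocytic enzyme gene Aldoc (12.4 and 19.1) and the oligodendrocyte gene Cnp (10.6 and 15.8) were highest, while Aspa, Dlx4, Neurod2 and Wnt3 had no promoter peak. In signalling, Thra (15.9 and 17.1) and Rps6kb1 (15.02 and 20.4) led, and Egfr, Erbb2, Grb7 and Grb10 had none. On chromosome 13, 9 of 21 neural and patterning genes and 6 of 14 growth factor genes had sites. The latter were led by the kinase gene Map3k1 (16.3 and 18.1) and Rasa1, a Ras GTPase-activating gene (13.3 and 14.1). Map1b (24.3 and 28.6), the proteoglycan gene Vcan (23.0 and 26.6) and Sox4 (18.1 and 20.4) had sites, while Foxq1, Barx1, Irx4 and Otp had no promoter peak, and neither did Inhba, Bmp6 and Fgfr4. None of the 10 genes of the HoxB cluster, which pattern the hindbrain and trunk, had a promoter peak in either replicate.

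**Figure D5:**
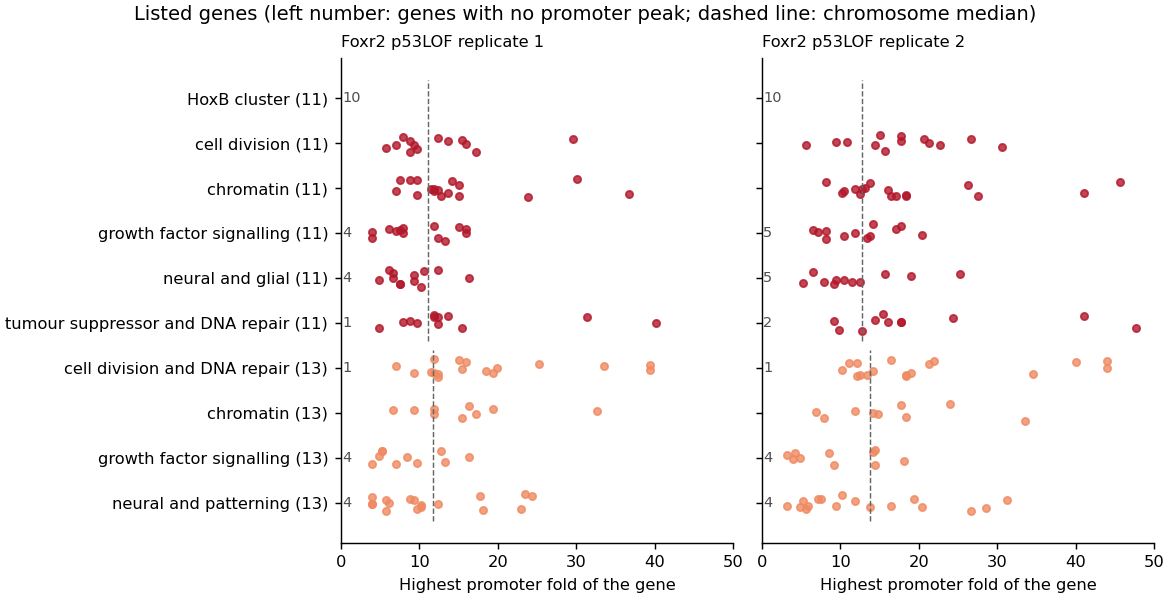
Highest promoter fold of each listed gene on chromosomes 11 and 13, by list and replicate, with the number of genes without a promoter peak at the left and the median over genes of the chromosome with a peak in both replicates as a dashed line. All 10 HoxB genes lack a peak, and Brca1 (40.2 and 47.6) and Msh3 (39.3 and 44.0) lie at the right.

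The rank of a gene differed between its chromosome and the genome. Sox9, a glial and stem cell transcription factor gene, had a promoter fold of 10.2 and 11.5. Ranked by its lower fold, this put it at percentile 63.2 of all coding genes with a peak in both replicates, and at percentile 44.8 of those on chromosome 11. Etv4 went from percentile 87.7 to 77.2, and Id4 on chromosome 13 (10.2 and 11.8) from 63.2 to 40.9. Brca1 was at percentile 99.7 by either count, and Msh3 at 99.7 and 99.8.

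Several listed genes lay under long peaks that the length limit of the filter removed. Kdm6b, an H3K27 demethylase gene, lay under peaks of 12591 and 13450 bp with folds of 30.05 and 41.1, and Tfap2a under peaks of 12078 and 12340 bp with 12.4 and 13.8, near the medians of 11.7 and 13.8 over genes of chromosome 13. In replicate 2 the peaks at Ptch1, the Hedgehog receptor gene (31.2, 12659 bp), at Cks2 (21.4, 11099 bp) and at Aurkb (15.1, 11671 bp) were also too long, so none of these 5 counted as a site. In replicate 1 Aurkb had a fold of 7.95 under a shorter peak. Peaks of at least 10000 bp numbered 2 and 8 on chromosome 11 and 4 and 15 on chromosome 13, with 1 and 2 on the reference.

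The histone genes of chromosome 13 were the largest group affected. Their cluster holds 54 Hist1 genes, which supply the core and linker histones of dividing cells. Promoter peaks covered 48 of them in both replicates, where 58.6% of coding genes on chromosome 13 and 51.9% on all chromosomes had such peaks, with a median fold over genes of 21.7 (range 7.07 to 26.5) in replicate 1 and 28.6 (7.23 to 34.8) in replicate 2. In replicate 2 these genes lay under 18 peaks, of which 7 were at least 10000 bp long, and 33 genes had their highest peak among those 7. The longest, of 27146 bp (chr13:23737235-23764380), spanned Hist1h1a, Hist1h1c and 7 neighbouring histone genes. A reproducible site was found at 15 of the 54 (27.8%), where 46.6% of coding genes on chromosome 13 and 39.7% on all chromosomes had one. The cluster's genes are close copies, and how reads shared between copies were placed is not given in the sources used here.

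Other gene families are set beside the same shares over all coding genes, 52.9% on chromosome 11 and 46.6% on chromosome 13, with 39.7% on all chromosomes. Zinc finger genes named Zfp had sites at 16 of 21 on chromosome 11 (76.2%) and 29 of 36 on chromosome 13 (80.6%). No site was found at any of 82 olfactory receptor (Olfr) genes on chromosome 11, at 15 on chromosome 13, at 36 vomeronasal receptor genes or 25 prolactin family genes on chromosome 13, or at 11 chemokine genes (Ccl) and 23 keratin-associated protein genes on chromosome 11. Keratin genes on chromosome 11 had 1 site among 27, and Serpinb genes on chromosome 13 had 1 among 15.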

How the data were processed

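Peaks were called by the authors in 2 Foxr2 p53LOF and 2 V5 control libraries. Per the methods and the submitters' processing notes, reads were trimmed (Trimmomatic 0.39), aligned to mm10 (BWA 0.7.17), stripped of duplicates (Picard 2.26.6) and called with MACS2 2.2.7.1. The deposited fold is a ratio made by the authors over 1 background value per library, so it also carries any difference between chromosomes in the DNA recovered. The deposited −log10 q, −log10 p and score (10 times the −log10 q) come from the same calls. Control folds were not set against Foxr2 folds.

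From these lists, fragments at summits were recovered by matching folds and p-values (background searched from 0.3 to 4). Read totals are not in the lists, so depth is given as fragments at a summit. Genes came from GENCODE M21 and bases from GRCm38. Windows of 5 Mb were counted by summit, and densities were per assembled base. Chromosome Y and unplaced contigs were left out of rankings. Steps were tested on simulated data. No statistical test was made, because the chromosomes were chosen from these values, and members, gene lists and motifs were chosen with earlier results of these data known. Named genes are the nearest genes of the 10 highest promoter and 5 highest distal sites per chromosome, 2 to 4 leading genes and those without a peak per list, and the leading genes of the extreme windows. Sox9, Id4, Nsd1's own promoter, the genes under long peaks, Hist1 genes and the other families were picked after their values were seen. Alternatives covered the distance to a start, the filter, the reference, the summary measure, window size and each replicate in turn. The sequence of 1 of the highest promoter sites and the results of 1 listed gene are not reported here.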

Additional observations from a re-analysis of the deposited data

How the results depend on the processing

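Of 66 values under other settings, 34 stayed within the spread between replicates (for counts and shares, within 1.5 times) and 32 moved, and none reversed. Since both replicates gave chromosome 13 the same promoter level of 1.5, nearly any other setting counts as a move there. The promoter level of chromosomes 11 and 13 over the reference was 1.33 and 1.27 with starts within 2 kb, 1.33 and 1.36 with filtered peaks, 1.42 and 1.51 with the highest peak of each gene, 1.68 and 1.64 as the upper quartile over all genes with no peak as 0, 1.29 and 1.33 against all other autosomes, 1.48 and 1.53 against chromosome 2, 1.42 and 1.47 against chromosome 10, 1.35 and 1.36 as a geometric mean, and 1.47 and 1.53 in fragments. With starts within 500 bp chromosome 13 had 1.48.

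The density of weak peaks over the reference was 3.02 and 3.15 for distal ones, 1.84 and 3.39 per protein-coding start, 2.11 and 2.06 against all other autosomes, and 2.1 and 1.82 when counted only where the other replicate had a peak, an alternative chosen after seeing the data. A fold of 5 or less gave 2.8 on chromosome 13. Reproducible sites numbered 598 and 357 at a minimum fold of 10, and 752 and 424 with folds divided by the chromosome's level, also chosen after seeing the data, a division that lowers these counts by construction. Without either replicate in turn, promoter levels ranged from 1.44 to 1.46 on chromosome 11 and stayed at 1.5 on chromosome 13, weak peak densities ranged from 2.33 to 2.76 and from 2.28 to 2.71, and sites ranged from 1296 to 1366 and from 827 to 884. The shares of 5 Mb windows stayed within 1.5 times. The causes of the other moves were not tested. No paired analysis was possible because no result comes from a test.

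The number of fragments limits the precision of a fold: the median promoter peak of the reference rests on 15 fragments in replicate 1 and 23 in replicate 2. With 2 replicates of 1 line and no test, the spread given is that between these libraries.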
